A study of Mus musculus with 12 samples.

Results

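The genes described here encode 10 transcription factors of the AP-1 and EGR families, Fos, Fosb, Fosl1, Fosl2, Jun, Junb, Jund, Atf3, Egr1 and Egr2. They were chosen by gene symbol and are 10 of the 24532 genes in the deposited table. Messenger RNA was sequenced from ear skin of mice kept either specific-pathogen free (SPF) or, without any microbes, germ-free (GF). Ears were treated with MC903 (calcipotriol, a vitamin D analogue used to inflame mouse skin) or with its solvent ethanol, "5 times daily" in the words of the labels, which give no number of days. This gives 4 groups of 3 libraries, SPF ethanol, SPF MC903, GF ethanol and GF MC903. The 6 SPF libraries carry the labels 1 to 3 and the 6 GF libraries the labels 1, 4 and 5. Mice are labelled C57BL/6 in 9 libraries, while in GF MC903 4, GF ethanol 5 and GF MC903 5 the final digit of the strain label runs on to 7, 8 and 9. No label gives age or sex, says that same-numbered libraries share a mouse, or says that replicates are separate mice. The p-values therefore measure the spread between libraries, which may be technical.

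AP-1 is a dimer of basic leucine zipper proteins, in which a FOS family protein pairs with a JUN family protein, or JUN proteins pair with each other or with ATF proteins such as ATF3. EGR proteins are zinc finger factors that bind GC-rich sites. Many of these genes are immediate early genes, transcribed within minutes of growth factor, cytokine or stress signals through factors already present in the cell, among them SRF with its ternary complex partners and CREB. In epidermis, AP-1 proteins take part in proliferation, wound responses and the expression of cornified envelope genes.

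All 10 genes passed the filter on low counts and were among the 16466 genes tested. Library totals lay between 36358294 and 48225425 estimated counts. All 6 keratinocyte markers listed (Krt5, Krt14, Krt1, Krt10, Trp63 and Dsp) were detected in each group, as the skin label implies. Levels are given as CPM, counts scaled by edgeR to a common library size with TMM factors, where 1 gene is followed across libraries, and as deposited FPKM, which is per transcript length, when genes are set beside each other. Changes are log2 values from edgeR's quasi-likelihood test with Benjamini-Hochberg adjustment over all genes tested, called at an adjusted p under 0.05. Scaling matters in this series: on library totals without TMM factors the median change over all genes tested moved from -0.10 to -0.68 in SPF skin and from -0.07 to -0.58 in GF skin. In bulk libraries such as these, fewer cells of a type and less RNA per cell cannot be told apart.

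The start regions of 5 of the genes are printed because these genes responded in different directions and sizes. They are RefSeq sequences of GRCm38.p6, the 120 bases before the annotated start, each on the strand of its gene, and capitals mark matches to the motifs searched. Fos lies at chr12:85473770-85473889 (+), Jun at chr4:95052223-95052342 (-), Junb at chr8:84978749-84978868 (-), Atf3 at chr1:191183334-191183453 (-) and Egr2 at chr10:67537749-67537868 (+), for 1 of its 5 starts in the table.
Fos: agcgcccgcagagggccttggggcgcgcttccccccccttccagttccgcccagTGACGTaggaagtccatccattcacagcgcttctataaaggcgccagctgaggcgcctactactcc
Jun: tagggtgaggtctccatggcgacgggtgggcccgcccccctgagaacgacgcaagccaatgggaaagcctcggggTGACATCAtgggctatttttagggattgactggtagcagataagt
Junb: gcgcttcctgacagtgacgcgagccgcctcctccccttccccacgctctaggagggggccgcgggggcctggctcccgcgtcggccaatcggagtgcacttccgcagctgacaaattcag
Atf3: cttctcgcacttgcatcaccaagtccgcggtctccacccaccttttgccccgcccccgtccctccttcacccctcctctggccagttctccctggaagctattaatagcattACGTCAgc
Egr2: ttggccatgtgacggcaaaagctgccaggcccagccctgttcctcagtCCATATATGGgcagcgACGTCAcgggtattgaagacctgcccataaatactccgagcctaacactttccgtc
The letters TGACGT, the core of a CREB or ATF site, were found on either strand in the windows of Fos (66 bases before the start), Atf3 (8 bases) and Egr2 (56 bases). Of 32851 promoter windows of 300 bases (250 before to 50 after the start), 7.51% hold it. Among the 8 genes with a window, the CArG box, the SRF site of CC and GG around a run of A or T, was found in Egr2 alone. It lay 72 bases before the start shown, and 1.63% of all windows hold it. All 5 Egr2 windows were searched, while these shares are per single window. The Egr2 start shown holds both motifs, that at 67537566 a CArG box without TGACGT, and that at 67535499 neither. Jun holds TGACATCA, an AP-1-like site bound by JUN and ATF2 dimers, 45 bases before its start, as do 3.62% of windows. None of the 8 genes with a window held TGANTCA (7.81% of windows), and GCGNGGGCG, an EGR site, was found in Fosb and Fosl2 (5.55% of windows). The motifs searched do not overlap each other where they are shown. These matches are a description of letters, not of binding, and no window was at hand for Fosl1 and Egr1. Sites more than 250 bases before a start were not searched, so a motif not found here, such as the CArG box in Fos, may lie further upstream.

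In ethanol-treated skin the genes differed widely in level. In SPF ethanol libraries Junb (78.6 ± 6.08 FPKM, SD, n = 3) and Jund (71.2 ± 14.1 FPKM) led, with overlapping ranges, and the ranges of Jun (31.5 ± 3.07 FPKM) and Fosl2 (29.9 ± 2.65 FPKM) also overlapped. Egr2 (23.6 ± 2.50 FPKM) and Egr1 (22.5 ± 0.974 FPKM) followed, again overlapping. Fos stood at 5.88 ± 0.799 FPKM, above Atf3 (2.78 ± 1.12 FPKM) and Fosb (2.31 ± 2.13 FPKM), which overlapped each other, and Fosl1 was lowest at 0.285 ± 0.124 FPKM. With MC903 the top of the order stayed with Junb (342.0 ± 35.8 FPKM in SPF skin, 258.8 ± 20.5 FPKM in GF skin) and Jund (118.3 ± 15.8 and 129.7 ± 7.96 FPKM), now with ranges apart. In SPF MC903 libraries Fosl1 (8.92 ± 1.37 FPKM) stood above Atf3 (5.58 ± 0.425 FPKM), and Egr2 (4.56 ± 0.169 FPKM) and Fosb (0.605 ± 0.123 FPKM) were at the bottom, each range apart from the next.

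**Figure D1:**
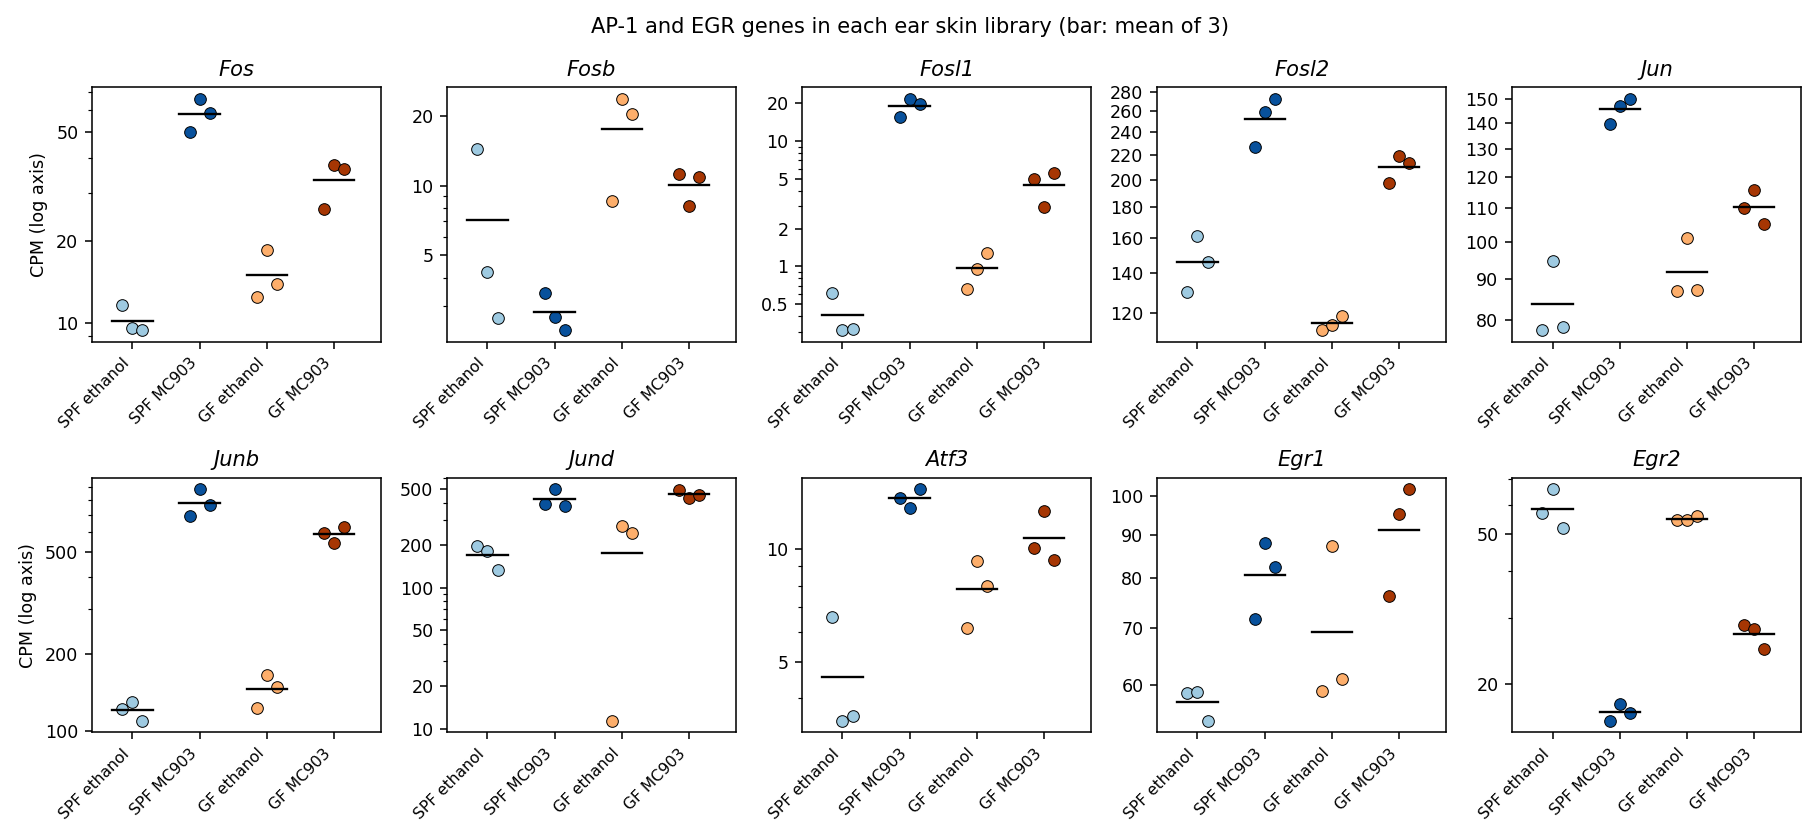
Level of each of the 10 genes in every library, as CPM on a log axis that differs between panels, with points for libraries and a bar for the mean of 3. Fosl1, Junb and Fos are higher and Egr2 lower in every MC903 library than in every ethanol library of the same housing, and GF ethanol 1 is far below its group for Jund.

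With MC903 in SPF skin 7 of the 10 genes rose, 2 fell and 1 was not called. Of all genes tested 35.0% were called higher, 38.8% lower and 73.8% in either direction, so being called in this comparison does not set a gene apart. The median change of the 10 genes was 1.05, against -0.10 over all genes tested. In GF skin 6 rose, 1 fell and 3 were not called (33.4% of all genes higher, 35.1% lower, 68.5% either way), with a median change of 0.66 against -0.07. On library totals the split of calls became 6 higher and 2 lower in SPF skin, and 4 higher and 3 lower in GF skin. Over all genes the higher share of the calls moved from 47.4% to 23.6% in SPF skin and from 48.8% to 22.4% in GF skin. The CPM ranges of ethanol and MC903 libraries did not overlap for 9 of 10 genes in SPF skin (76.7% of all genes) and for 8 of 10 in GF skin (74.0%).

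The response differed by housing for 6 of the 10 genes, against 17.0% of all genes tested (7.76% higher, 9.26% lower in the difference, which is the GF response minus the SPF response). It was lower in GF skin for Fosl1, Fos, Atf3, Junb and Jun, and for Egr2, which fell in both housings, the difference was positive. The median difference of the 10 genes was -0.31, against 0.02 over all genes. On library totals 6 of the 10 were again called, while the higher share of all calls moved from 45.6% to 58.9%. The calls for 5 of the 6 genes held under every alternative tried, and that for Atf3 did not.

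**Figure D2:**
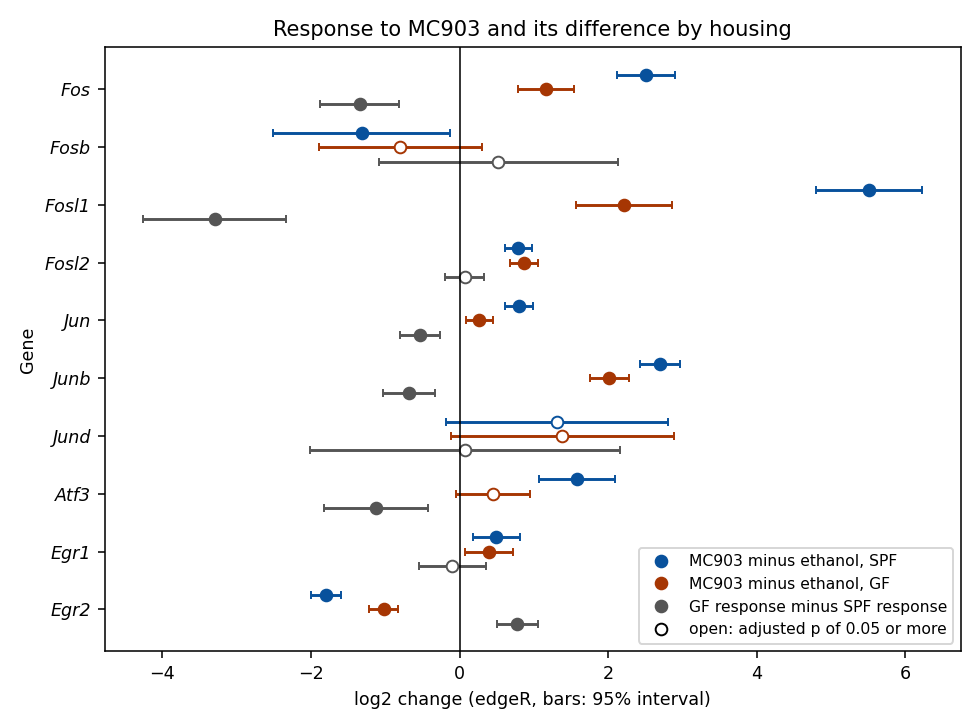
Log2 change with MC903 in SPF skin, in GF skin, and the difference between these responses for each gene, with 95% intervals, where open points did not pass the adjusted threshold of 0.05. Fosl1 shows the widest gap, 5.51 in SPF skin against 2.22 in GF skin, while the 2 responses of Fosl2 lie side by side.

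Fosl1 encodes FRA-1, a FOS family protein without the transactivation domain of FOS that is itself known as an AP-1 target. In SPF skin its level was 0.608, 0.309 and 0.313 CPM in the ethanol libraries and 15.5, 21.6 and 19.5 CPM in the MC903 libraries. The groups were far apart, with a ratio of means of 46.0. The ethanol values rest on 32, 15 and 17 counts. Fosl1 rose by 5.51 ± 0.33 (log2, SE; 95% interval 4.79 to 6.22; edgeR adjusted p = 1.5e-08). In GF skin the level was 0.662, 0.950 and 1.28 CPM with ethanol and 4.97, 2.97 and 5.50 CPM with MC903. The GF groups did not overlap either, with a ratio of means of 4.65 and a rise of 2.22 ± 0.30 (edgeR adjusted p = 2.8e-05). The difference between the responses was -3.29 ± 0.44 (95% interval -4.25 to -2.33; edgeR adjusted p = 0.00053), and it stayed between -3.69 and -3.02 under every alternative. Fosl1 (chr19, 5447698 to 5455938, + strand) overlaps Ccdc85b on the other strand by 2759 bases, and the use of strand in counting is not given in the sources used here. Ccdc85b itself was measured at 27.7 ± 2.56 CPM in SPF ethanol, 42.6 ± 7.54 in SPF MC903, 45.3 ± 7.30 in GF ethanol and 74.0 ± 6.41 CPM in GF MC903. Like Fosl1, it was higher with MC903 in both housings, and higher in GF than in SPF skin with ethanol. With MC903 it was higher in GF than in SPF skin, the opposite order from Fosl1. Whether reads of Ccdc85b added to the counts of Fosl1 was not tested.

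Fos, the founding immediate early gene of the family, had 11.7, 9.59 and 9.44 CPM in SPF ethanol libraries and 49.8, 66.0 and 58.4 CPM in SPF MC903 libraries. In GF skin it had 12.5, 18.6 and 13.9 CPM with ethanol and 26.2, 37.7 and 36.5 CPM with MC903. Ethanol and MC903 libraries did not overlap in either housing, and every GF MC903 library lay below every SPF MC903 library. Fos rose by 2.50 ± 0.18 in SPF skin (edgeR adjusted p = 8.0e-08) and by 1.16 ± 0.17 in GF skin (edgeR adjusted p = 7.1e-05), a difference of -1.34 ± 0.24 (edgeR adjusted p = 0.0032).

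Fosl2, which encodes FRA-2, gave similar changes in both housings. Its level went from 130.3, 161.0 and 146.3 CPM to 226.7, 258.6 and 272.3 CPM in SPF skin and from 112.5, 114.9 and 118.9 CPM to 197.1, 219.3 and 213.4 CPM in GF skin. Fosl2 rose by 0.79 ± 0.09 in SPF skin (edgeR adjusted p = 3.0e-06) and by 0.86 ± 0.09 in GF skin (edgeR adjusted p = 2.1e-06). The difference of 0.07 was not called, with a 95% interval from -0.19 to 0.33. On library totals the rises were 0.22 and 0.35, both still called.

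Fosb, a close relative of Fos, was the most variable of the 10 genes in SPF ethanol skin, at 14.4, 4.23 and 2.67 CPM. In SPF MC903 libraries it was 3.42, 2.70 and 2.37 CPM, so the ranges overlapped and the high value of SPF ethanol 1 set the fold. The SPF change of -1.32 ± 0.55 was called (edgeR adjusted p = 0.044), but without SPF ethanol 1 it was -0.27 (edgeR adjusted p = 0.54). Leaving out any of 8 other libraries also ended the call, with edgeR adjusted p between 0.051 and 0.114: SPF MC903 1, 2 and 3, GF ethanol 4 and 5, and GF MC903 1, 4 and 5. The call was also lost in DESeq2 (DESeq2 adjusted p = 0.056), with no filter on low counts, limma voom, robust dispersion, the SPF groups alone, the length trend removed and the replicate block. In GF skin Fosb was 8.60, 23.7 and 20.3 CPM with ethanol and 11.2, 8.17 and 10.9 CPM with MC903, also overlapping. That change of -0.80 was not called (95% interval -1.90 to 0.30; edgeR adjusted p = 0.18), though it was without SPF ethanol 1 (-0.80, edgeR adjusted p = 0.042) and on library totals (-1.30, edgeR adjusted p = 0.035). The difference between the responses, 0.52, had an interval from -1.09 to 2.13.

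Set beside each other per transcript length, the FOS family messages changed in make-up. Shares taken within each library are free of a scaling factor common to all its genes. They are not free of a trend with gene length that differs between libraries. Fosl2 has the longest implied length, 5997 bases, against 3843 for Fosb, 2144 for Fos and 1751 for Fosl1. The part of such a trend in these shares was not tested. Fosl2 made up 78.0% ± 7.48 of the summed FPKM of Fos, Fosb, Fosl1 and Fosl2 in SPF ethanol libraries and 52.2% ± 2.33 with MC903. Over the same groups Fos went from 15.3% ± 1.88 to 33.5% ± 1.65 and Fosl1 from 0.741% ± 0.308 to 13.3% ± 0.878, with no overlap between the groups. In GF skin the Fosl2 share was 61.8% ± 6.84 with ethanol and 62.8% ± 1.98 with MC903, with overlapping ranges. The Fosl1 share in GF skin was 1.73% ± 0.463 with ethanol and 4.62% ± 1.47 with MC903, and the Fosb share 14.3% ± 5.28 and 4.76% ± 1.05. Every SPF MC903 library had a Fosl1 share of at least 12.5%, and no GF MC903 library had more than 5.57%. The family sum was 38.3 ± 1.51 FPKM in SPF ethanol and 66.7 ± 6.67 FPKM in SPF MC903 libraries, and 37.2 ± 3.79 and 46.3 ± 3.71 FPKM in the GF groups. Unlike the shares, this sum depends on the scaling between libraries. On log2 FPKM, without TMM factors, the median change with MC903 over all genes was -0.61 in SPF and -0.53 in GF skin. These shares were not tested.

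**Figure D3:**
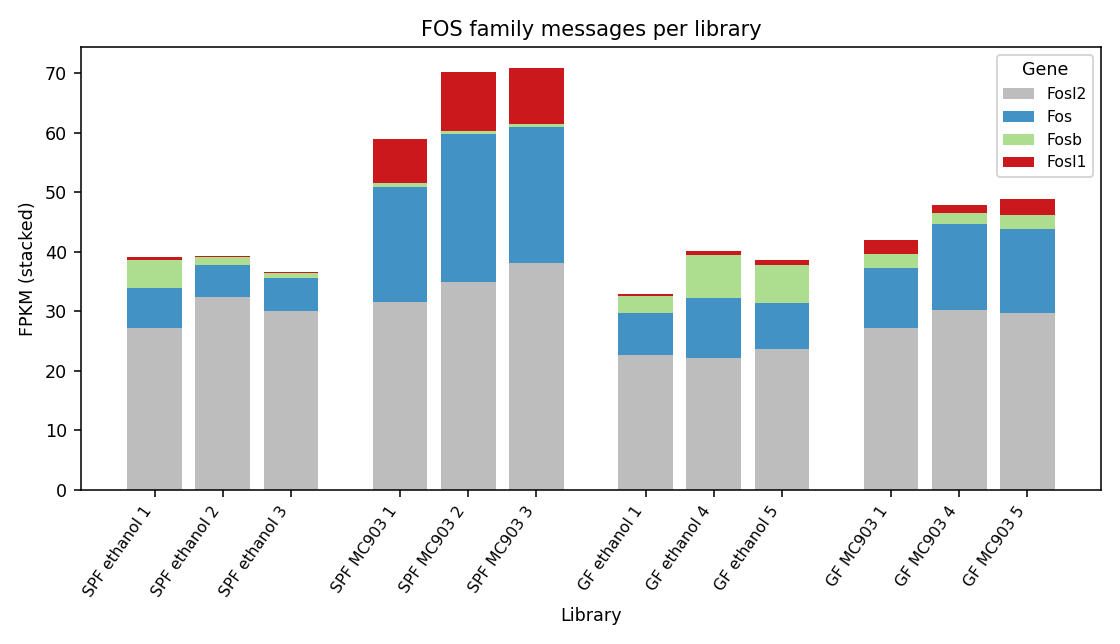
FPKM of the 4 FOS family genes stacked for each library, so that the bar height is their sum. The Fosl1 band is thick in the 3 SPF MC903 libraries, thin in the GF MC903 libraries and barely visible with ethanol, and Fosl2 makes up more of each bar than any other gene.

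Among the JUN genes, Junb, whose protein pairs with FOS proteins and is needed for normal epidermal homeostasis, changed most. It had 122.1, 129.5 and 109.3 CPM in SPF ethanol libraries and 692.0, 880.6 and 766.3 CPM in SPF MC903 libraries. In GF skin it had 123.2, 165.7 and 147.6 CPM with ethanol and 592.4, 541.4 and 629.5 CPM with MC903. The treatments were far apart in both housings, with ratios of means of 6.48 and 4.04. Junb rose by 2.70 ± 0.12 in SPF skin (edgeR adjusted p = 1.7e-09) and by 2.01 ± 0.12 in GF skin (edgeR adjusted p = 3.4e-08), and the difference was -0.68 ± 0.16 (edgeR adjusted p = 0.014).

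Jun, which encodes c-Jun, the JUN family's strongest activator, moved less. Its SPF level was 77.7, 94.8 and 78.5 CPM with ethanol and 139.5, 147.1 and 150.0 CPM with MC903, without overlap. Its GF level was 86.9, 100.9 and 87.1 CPM with ethanol and 109.9, 115.9 and 105.0 CPM with MC903, a narrower gap. Jun rose by 0.80 ± 0.09 in SPF skin (edgeR adjusted p = 3.0e-06) and was called higher by 0.27 ± 0.09 in GF skin (edgeR adjusted p = 0.015), but on library totals the GF change was -0.24 and called in the other direction (edgeR adjusted p = 0.011). The GF call also ended without GF ethanol 1, GF ethanol 5 or GF MC903 4 (edgeR adjusted p between 0.056 and 0.061). The difference between the responses, -0.53 ± 0.12 (edgeR adjusted p = 0.011), was -0.47 on library totals, where it was also called. Junb made up 71.4% ± 1.53 of the summed FPKM of Jun and Junb in SPF ethanol libraries and 90.2% ± 0.873 in SPF MC903 libraries, and 73.2% ± 1.90 and 90.2% ± 1.11 in GF skin. Jun overlaps the antisense gene Junos by 689 bases, so its counts could hold some of that gene's reads.

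Jund, a JUN gene known for steady expression and weak response to growth factors, had calls that turned on 1 library. In GF ethanol it was 11.4, 274.0 and 245.0 CPM, where the low value of GF ethanol 1 rests on 567 counts and stands far below the rest of its group. The other GF values were 490.8, 433.9 and 457.6 CPM with MC903. In SPF skin Jund was 195.8, 182.9 and 132.9 CPM with ethanol and 389.9, 497.3 and 379.2 CPM with MC903, with no overlap. Neither the SPF change of 1.31 (95% interval -0.19 to 2.81; edgeR adjusted p = 0.10) nor the GF change of 1.38 (-0.12 to 2.88; edgeR adjusted p = 0.093) was called. The fit shares 1 spread per gene over all groups, and this library is part of it. Without GF ethanol 1 the change was 1.31 in SPF skin (edgeR adjusted p = 6.8e-06) and 0.83 in GF skin (edgeR adjusted p = 0.0009). The difference without that library was -0.48 (edgeR adjusted p = 0.16). The fit of the SPF groups alone gave 1.34 (edgeR adjusted p = 7.0e-05), and limma voom with all libraries gave 2.34 in GF skin (limma adjusted p = 0.027). Jund overlaps the antisense gene Gm11175 by 919 bases.

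Atf3 encodes a stress-induced bZIP protein that often acts as a repressor. It had 6.61, 3.48 and 3.60 CPM in SPF ethanol libraries and 13.7, 12.9 and 14.4 CPM in SPF MC903 libraries. In GF skin it had 6.15, 9.31 and 8.00 CPM with ethanol and 10.1, 12.6 and 9.34 CPM with MC903, where the highest ethanol and the lowest MC903 library nearly meet. Atf3 rose by 1.58 ± 0.23 in SPF skin (edgeR adjusted p = 4.8e-05). The GF change of 0.45 was not called (95% interval -0.04 to 0.94; edgeR adjusted p = 0.095), but it passed without SPF ethanol 1 (edgeR adjusted p = 0.022) and in a fit of the GF groups alone (edgeR adjusted p = 0.045). On library totals the GF change was -0.06 and not called (edgeR adjusted p = 0.83), so its direction depends on the scaling. The difference, -1.13 ± 0.32, was called (edgeR adjusted p = 0.032), but leaving out any of 8 libraries ended that call, with values between -1.13 and -0.97 and edgeR adjusted p between 0.050 and 0.080. Those libraries were SPF ethanol 2 and 3, SPF MC903 1 and 3, GF ethanol 4 and 5, and GF MC903 1 and 5.

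Of the EGR genes, Egr1, the most rapidly induced of the family in many cells, had 58.7, 59.0 and 54.5 CPM in SPF ethanol libraries and 71.8, 88.0 and 82.4 CPM in SPF MC903 libraries. GF ethanol libraries had 59.1, 87.3 and 61.1 CPM and GF MC903 libraries 76.3, 95.1 and 101.6 CPM, with overlap. The changes of 0.49 ± 0.15 in SPF skin (edgeR adjusted p = 0.0086) and 0.40 ± 0.15 in GF skin (edgeR adjusted p = 0.029) were called higher, but on library totals they were -0.09 and -0.11 and neither was called, so the direction of Egr1 depends on the scaling. The GF call also ended without GF ethanol 1 or 5 or GF MC903 4 or 5 (edgeR adjusted p between 0.074 and 0.121) and in a fit of the GF groups alone (edgeR adjusted p = 0.056). The responses in the 2 housings differed by -0.10, with a 95% interval from -0.54 to 0.35.

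Egr2, known for its role in Schwann cell myelination and in lymphocyte tolerance, went the other way from most of the genes. It had 56.9, 65.8 and 52.1 CPM in SPF ethanol libraries and 15.9, 17.6 and 16.7 CPM in SPF MC903 libraries. In GF skin it had 54.5, 54.5 and 55.8 CPM with ethanol and 28.6, 27.9 and 24.8 CPM with MC903. Ethanol levels were close in both housings, and with MC903 every GF library lay above every SPF library. Egr2 fell by 1.80 ± 0.09 in SPF skin (edgeR adjusted p = 4.3e-09), a 3.48-fold lower mean, and by 1.02 ± 0.09 in GF skin (edgeR adjusted p = 7.9e-07), a 2.03-fold lower mean. The difference was 0.78 ± 0.13 (edgeR adjusted p = 0.0017) and 0.84 on library totals. Its relative Egr3 moved the opposite way in SPF skin, from 127.2 ± 9.05 to 249.3 ± 20.5 CPM, a rise of 0.97 ± 0.08 (edgeR adjusted p = 2.5e-07). In GF skin Egr3 went from 111.0 ± 8.29 to 144.9 ± 6.75 CPM. The difference between the responses of Egr3 was -0.59 ± 0.11 (edgeR adjusted p = 0.0041).

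Markers of several cell types moved in the same samples. The summed T cell markers (5 of 7 listed were in the table; Cd3d, Cd3e, Cd3g, Cd4 and Cd8a) went from 21.8 to 24.3 CPM to 9.08 to 10.5 CPM in SPF skin, and from 23.9 to 24.2 CPM to 17.8 to 20.9 CPM in GF skin. Of the 4 that were tested, all 4 fell in SPF skin and 1 in GF skin. For 3 of these markers the difference between the responses was called higher. Cd8a was at 0 in all 3 SPF ethanol libraries. On library totals all 4 T cell markers tested fell in both housings. The 6 keratinocyte markers split, as Krt1 (2.82) and Krt14 (2.51) rose and Krt10 (-0.49) and Trp63 (-0.32) fell in SPF skin, while in GF skin 4 rose (Krt1, Krt14, Krt5 and Krt10) and none fell. On library totals 2 rose and 4 fell in SPF skin and 2 rose and 2 fell in GF skin. Their summed level went from 22931 to 26178 CPM to 47463 to 57494 CPM in SPF skin and from 26470 to 30072 CPM to 57998 to 59053 CPM in GF skin. Fibroblast and skeletal muscle markers fell, 6 of 6 each in both housings, also on library totals. Of 5 markers each, 4 of endothelium and 3 of adipocytes fell in both housings and none rose, and of 5 cartilage markers 3 fell and 1 rose in SPF skin and 4 fell in GF skin. Of 6 macrophage markers 5 rose and 1 fell in SPF skin and 4 rose and 1 fell in GF skin, but 3 and 1, and 2 and 2, on library totals, and the sum went from 263.0 to 317.2 CPM to 406.1 to 490.0 CPM in SPF skin and from 335.0 to 364.0 CPM to 462.3 to 531.5 CPM in GF skin. Of 5 neutrophil markers tested 2 rose and 1 fell in SPF skin and 4 rose in GF skin (1 and 1, and 3 and 1, on library totals), all at a sum of at most 19.4 CPM, and Ly6g was at 0 in every library but 1 of GF MC903. The difference between the responses was also called for markers of other cell types. It was higher for 1 and lower for 2 keratinocyte markers and higher for 1 neutrophil marker. For fibroblast, endothelium and cartilage it was lower for 1 marker each. Skeletal muscle markers were higher in GF than in SPF skin for 5 of 6 with each treatment, also on library totals, and none lower. No T cell marker tested was called by housing with ethanol, while 3 of 4 were higher in GF skin with MC903. Keratinocyte markers were higher in GF skin for 2 of 6 with ethanol, and 3 were higher and 1 lower with MC903. Each other list given here had at most 2 markers called by housing in a direction. The part of all these markers in the changes of Egr2 and of the AP-1 genes was not tested.

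Housing under a single treatment gave a second view, which shares its libraries with the comparisons above. With ethanol, 3 of the 10 genes were higher in GF than in SPF skin and 1 was lower, against 11.6% higher, 10.3% lower and 22.0% called either way over all genes. Higher were Fosl1 (1.22 ± 0.36, edgeR adjusted p = 0.031), Atf3 (0.78 ± 0.23, edgeR adjusted p = 0.032) and Fos (0.55 ± 0.17, edgeR adjusted p = 0.042), and Fosl2 was lower by a change of -0.34 ± 0.09 (edgeR adjusted p = 0.016). Groups did not overlap for 4 genes, Fos, Fosl1, Fosl2 and Egr1 (43.9% of all genes). None of these calls held under every alternative: no gene of the 10 was called without SPF ethanol 2 or GF ethanol 4, 1 was called without SPF ethanol 3 or GF ethanol 5, and 6 were called without GF ethanol 1, where Fosb, Junb and Jund were gained and Fosl2 was lost. Fosb also became called without SPF ethanol 1 (2.35, edgeR adjusted p = 0.0061), and Fos was lost without SPF MC903 3 (edgeR adjusted p = 0.050). In the fits without SPF ethanol 2 and GF ethanol 4, 6 and 3 genes had an unadjusted edgeR p under 0.05. Over all genes the calls went from 3616 to 2354 without SPF ethanol 2, to 2333 without SPF ethanol 3 and to 1475 without GF ethanol 4. They also went down to 2690 without GF ethanol 1, to 3093 without GF ethanol 5 and to 2627 without SPF ethanol 1. On library totals the higher share of all calls moved from 52.9% to 39.1%.

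With MC903, 5 of the 10 genes were lower in GF than in SPF skin and 2 were higher, against 20.9% lower, 20.8% higher and 41.7% called over all genes. Fosl1 was lower by the widest margin (-2.07 ± 0.26, edgeR adjusted p = 7.3e-05), a 4.21-fold lower mean, followed by Fos (-0.79 ± 0.17, edgeR adjusted p = 0.0027), Junb (-0.41 ± 0.12, edgeR adjusted p = 0.013), Jun (-0.40 ± 0.09, edgeR adjusted p = 0.0027) and Fosl2 (-0.27 ± 0.09, edgeR adjusted p = 0.024). Egr2 was higher (0.69 ± 0.09, edgeR adjusted p = 9.5e-05), as was Fosb (1.82 ± 0.55, edgeR adjusted p = 0.019). The groups did not overlap for 8 of the 10 genes (50.6% of all genes). Without SPF MC903 2 the number called went from 7 to 4, as Fosb, Fosl2 and Junb were lost (edgeR adjusted p between 0.052 and 0.061). Over all genes 6871 were called in the main fit, and 5652 to 6784 when a single library was left out. Single calls also ended for Fosb without SPF MC903 3, for Fosl2 without SPF MC903 3 or GF MC903 1 or 5, and for Junb without GF MC903 4 (edgeR adjusted p between 0.050 and 0.101). Fosb was lost as well in limma voom (limma adjusted p = 0.062) and with robust dispersion (edgeR adjusted p = 0.056), and Fosl2 with the length trend removed (-0.17, edgeR adjusted p = 0.13). The calls of Fosl1, Fos, Jun and Egr2 held under every alternative.

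**Figure D4:**
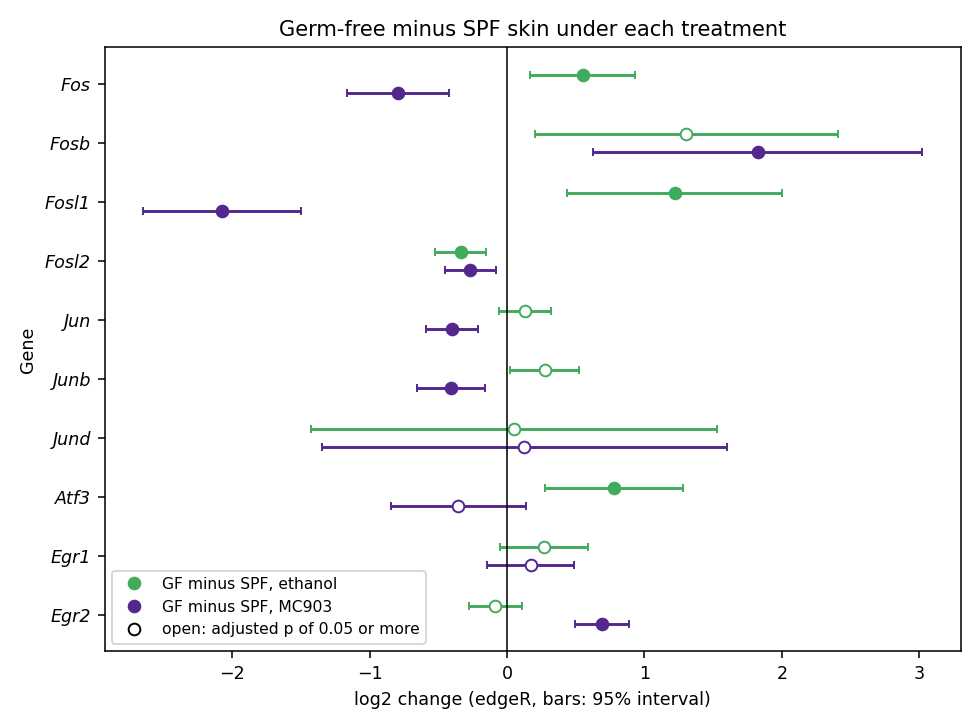
Log2 difference between housings (GF minus SPF) for each gene, shown separately for ethanol and MC903, with 95% intervals and open points where the adjusted p was 0.05 or more. Fos and Fosl1 lie to the right of 0 with ethanol and to the left with MC903, and Egr2 lies to the right only with MC903.

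Within groups, the highest and lowest levels fell to some libraries more often than to others, which was counted and not tested. GF ethanol 1 held the lowest CPM of its group for all 10 genes (31.6% of all genes tested), and GF ethanol 4 held the highest for 7 of them (Fos, Fosb, Jun, Junb, Jund, Atf3 and Egr1; 36.1% of all genes). In SPF ethanol, library 1 held the highest level of Fos, Fosb, Fosl1, Jund and Atf3 (31.0% of all genes), and library 2 that of the other 5 (34.2%). SPF ethanol 3 was lowest for 6 genes (34.3% of all genes). SPF MC903 1 was lowest of its group for 7 genes (30.7% of all genes), and SPF MC903 2 highest for 6 (37.6%). In GF MC903 each library was highest for 3 or 4 genes (32.2% to 34.5% of all genes).

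Over all 12 libraries, the genes with the most similar profile (smallest root mean square difference of mean-centred log2 CPM) were found for each gene among all tested. They were closest for Jun (Chmp2b, 0.07), Fosl2 (Supt6, 0.08), Egr2 (Fam189a2, 0.09, and Tef, 0.10) and Junb (Klk11, 0.09, and Sult2b1, 0.11). Fos was nearest to Gmds (0.17), and no gene came nearer to Fosb than Msmp (0.50) and Dbp (0.54) or to Fosl1 than Tinagl1 (0.50) and Chac1 (0.51). For Jund the nearest was Sap18b (0.25), which was 1.52 CPM in GF ethanol 1 against 55.4 and 53.2 CPM in the rest of that group, so the low library is shared by both. Among the 10 genes themselves Jun and Fosl2 were most alike (0.24), then Jun and Egr1 (0.25) and Fos and Junb (0.35).

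The counts of the pathway lists below stand beside 35.0% higher and 38.8% lower over all genes in SPF skin, 33.4% and 35.1% in GF skin, and 7.76% and 9.26% in the difference, and no list was compared with another by a test. Of 18 other AP-1 and bZIP partner genes tested, 10 rose and 5 fell in SPF skin and 7 rose and 5 fell in GF skin, and on library totals this became 7 and 7, and 4 and 9. Atf4, a stress response factor, rose by 2.17 ± 0.11 in SPF skin and 1.63 ± 0.11 in GF skin, and Atf5 by 2.73 ± 0.09 and 1.85 ± 0.08 (all edgeR adjusted p at or under 7.5e-08). Mafa fell by 3.54 ± 0.54 and 1.91 ± 0.44, from a level of 1.21 ± 0.336 to 0.106 ± 0.0573 CPM in SPF skin. Jdp2, a bZIP protein that dimerises with JUN, went from 7.76 ± 1.38 to 17.8 ± 2.79 CPM in SPF skin but from 8.11 ± 0.736 to 8.13 ± 0.964 CPM in GF skin, a difference of -1.19 ± 0.22 (edgeR adjusted p = 0.0033). The difference between responses was called lower for 5 of the 18 and higher for none, with 4 and none on library totals.

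Other immediate early genes rose more often than they fell in both housings. Of 29 tested, 22 rose and 2 fell in SPF skin and 19 rose and 3 fell in GF skin, with medians of 1.07 and 0.49. On library totals the counts were 19 and 6, and 11 and 8, and the GF median became -0.02. Ier3, a survival and stress gene, rose by 2.62 ± 0.13 and 2.02 ± 0.12, and Gadd45b by 2.28 ± 0.08 and 1.86 ± 0.08. For 11 of the 29 the difference between the responses was called lower and for none higher (10 and none on library totals). Rhob, a small GTPase, had the smallest p among them: it was 86.5 ± 4.25 CPM with ethanol and 174.2 ± 23.3 CPM with MC903 in SPF skin, and 99.4 ± 9.22 and 88.1 ± 1.02 CPM in GF skin, a difference of -1.18 ± 0.13 (edgeR adjusted p = 0.00017).

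The kinases and factors that act upstream showed no common direction. Of 18 MAP kinase genes 8 rose and 5 fell in SPF skin and 7 rose and 5 fell in GF skin, but on library totals 6 and 9, and 4 and 8. Map2k1, which encodes MEK1 of the ERK route, went from 39.8 ± 1.45 to 109.5 ± 11.4 CPM in SPF skin and from 44.1 ± 0.717 to 59.1 ± 1.65 CPM in GF skin, a difference of -1.04 ± 0.11 (edgeR adjusted p = 0.0001). Map3k1, a JNK route kinase, fell by 1.71 ± 0.09 in SPF skin and its difference was 0.84 ± 0.12 (edgeR adjusted p = 0.00098). Of 7 SRF and cofactor genes 2 rose and 3 fell in SPF skin and 1 rose and 3 fell in GF skin (1 and 6, and none and 5, on library totals). Srf went from 50.0 ± 2.40 to 104.8 ± 0.948 CPM in SPF skin and from 68.1 ± 6.47 to 95.2 ± 10.9 CPM in GF skin, where its rise of 0.48 was -0.03 on library totals and not called, and the difference was -0.59 ± 0.13 (edgeR adjusted p = 0.0082). Of the 12 EGR corepressor and ERK feedback genes 4 rose and 6 fell in SPF skin and 4 rose and 7 fell in GF skin (4 and 8, and 2 and 8, on library totals). Dusp5, an ERK phosphatase, rose by 3.61 ± 0.21 in SPF skin and 2.16 ± 0.20 in GF skin, a difference of -1.45 ± 0.27 (edgeR adjusted p = 0.0037). Spred2, an inhibitor of the RAS and ERK route, fell by 1.87 ± 0.21 and 2.79 ± 0.23. The difference between the responses was called lower for 4 and higher for 1 of the 18 MAP kinase genes. Of the 7 SRF and cofactor genes 2 were called lower and 1 higher in it. Among the 12 EGR corepressor and ERK feedback genes these counts were 4 and 1.

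Genes given in textbooks as AP-1 targets mostly rose. Of 21 tested, 19 rose and 1 fell in SPF skin and 15 rose and 1 fell in GF skin, with medians of 2.02 and 1.43 (17 and 2, and 13 and 4, on library totals). Mmp13, a collagenase, rose by 8.47 ± 0.44 and 8.59 ± 0.46, from 1.50 ± 1.13 to 536.0 ± 141.4 CPM in SPF skin. Sprr1b, a cornified envelope protein, rose by 8.72 ± 0.55 in SPF skin and 7.38 ± 0.52 in GF skin. Ptgs2, the inducible cyclooxygenase, went from 0.366 ± 0.0611 to 145.8 ± 42.0 CPM in SPF skin and from 0.345 ± 0.106 to 16.8 ± 2.22 CPM in GF skin, a difference of -3.03 ± 0.40 (edgeR adjusted p = 0.0005). The difference was called lower for 10 of the 21 and higher for none (8 and none on library totals). Heat shock genes, which stress also induces, rose for 7 and fell for 3 of 11 in SPF skin. In GF skin 8 rose and 2 fell, but on library totals 6 and 5 in both housings. Their difference between the responses was called lower for 5 of the 11 and higher for 1, also on library totals.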

How the data were processed

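Per the labels' protocols, skin RNA was made into TruSeq libraries for sequencing with the HiSeq4000. As build, mm10 is listed in the submitters' processing notes and, as tools, StringTie 1.3.4d, HISAT2 2.1.0, Trimmomatic and bcl2fastq 2.20.0. Order, settings, annotation and use of strand: not given in the sources used here. The table the authors deposited holds a read count and an FPKM column for each of the 12 libraries, per the file headers. The deposited counts are whole numbers, treated here as estimated counts because StringTie is listed, and were used unchanged. For all 10 genes the identifier was found in RefSeq's table of GRCm38.p6, the same build as mm10, which gave coordinates, and overlaps are from GENCODE M21.

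Counts were fitted with edgeR 4.0.16 in R 4.3.3: filterByExpr by group (minimum count 10, minimum total 15), TMM factors, 1 quasi-likelihood fit with a coefficient per group, Benjamini-Hochberg adjustment at 0.05. Of 24532 genes 16466 were tested and 8066 were not. The SE of a change is its size over the square root of F. Each pair of replicates differed by more than sampling noise (chi-square per degree of freedom 17.9 to 47.2). Deposited FPKM served for comparing genes and for limma on log2(FPKM + 0.1). The code was tested on simulated data.

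Comparisons were the response to MC903 in each housing, their difference, and housing under each treatment. Alternatives were DESeq2 1.42.0, library totals, other filters, limma voom (limma 3.58.1), robust dispersion, only the groups compared, log2 FPKM, removal of a gene length trend, a replicate block and leaving out each library. The genes and lists were chosen with earlier results of these data known. All 10 genes are named in every comparison. From each pathway list were named at most the 3 genes with the largest change in each response and the 3 with the smallest adjusted p for the difference, and for each of the 10 genes the 2 most similar. Il6, listed at 0 in all 3 GF ethanol libraries, is not described. Ccdc85b is given because it overlaps Fosl1. Of 10 lists of cell type markers, the result of 1 is not reported here.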

Additional observations from a re-analysis of the deposited data

Results flagged for a closer look

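For 6 genes the response to MC903 differed between housings by edgeR's quasi-likelihood test of the difference itself, given as the GF minus the SPF log2 change. The values were -3.29 for Fosl1, -1.34 for Fos, -1.13 for Atf3, -0.68 for Junb, -0.53 for Jun and 0.78 for Egr2. Of these, the call for Atf3 depended on single libraries.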

How the results depend on the processing

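Over the 10 genes, 5 comparisons and the alternatives run for each, 976 values kept direction and side of the threshold, 68 lost and 13 gained the call, and 23 changed sign. Library totals gave Egr1 -0.085 (SPF response) and -0.111 (GF response), Jun -0.243 and Atf3 -0.058 in the GF response and Jund -0.017 for housing with ethanol. On log2 FPKM these were -0.085, -0.110, -0.249, -0.058 and -0.92, and the mean log2 levels in FPKM gave -0.085 and -0.110 for Egr1, -0.249 for Jun and -0.059 for Atf3. limma voom gave Jund -0.89 for housing with ethanol, and without the length trend the Fosl2 difference was -0.018. Leaving out 1 library changed the sign of 6 values that were not called: the differences of Fosb (-0.52 to 0.91), Fosl2 (-0.0069 to 0.15), Jund (-0.48 to 0.53) and Egr1 (-0.20 to 0.11), and housing with ethanol for Jund (-0.41 to 0.61) and Egr2 (-0.16 to 0.014). For housing with ethanol, 0 of 10 genes were called with the length trend removed (edgeR; 4 at an unadjusted p under 0.05; DESeq2 4), and 2129 of all genes. Leaving out each library gave 8 to 10 called genes of the 10 in the SPF response, 5 to 9 in the GF response, 5 to 6 in the difference, 0 to 6 for housing with ethanol and 4 to 7 for housing with MC903. Over all genes these ranges were 11536 to 12244, 10371 to 11390, 2130 to 2763, 1475 to 3981 and 5652 to 6784.

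Deviations of same-numbered libraries had correlations of 0.0073, 0.067 and 0.14 in SPF and 0.022, -0.022 and 0.00056 in GF skin. Against MC903 libraries of other numbers, the highest values were 0.060, 0.0041 and -0.011 in SPF skin. They were 0.021, 0.046 and 0.057 in GF skin. Correlations this small, from groups of 3, cannot settle whether the numbers pair libraries, and the main fit left them unpaired. With the replicate block 8, 7 and 6 of the 10 genes were called in the SPF response, the GF response and the difference, against 9, 7 and 6. No paired analysis was possible for the housing comparisons, because each block held libraries of 1 housing only. Fosl1 with ethanol, at 15 to 61 counts, is the level most limited by depth.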
